A study of Homo sapiens with 8 samples.

Results

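SF3A2-only 3′ splice site clusters are stretches of RNA that were listed after recovery with an antibody to SF3A2 and not listed after recovery through Flag-tagged SF3B1. They were chosen from the deposited tables as clusters that carry the authors' 3′ splice site mark, appear in the SF3A2 tables of both genotypes and appear in neither Flag table. This gave 4379 of the 122826 distinct clusters of the series. The cells were K562, an erythroleukemia line engineered to express SF3B1 with a 3xFlag tag, either with the K700E substitution or with the unchanged sequence, so the tag is shared by all groups. The groups were SF3A2 K700E (3 libraries), SF3A2 wild type (3 libraries), Flag K700E (1 library) and Flag wild type (1 library), 8 libraries in 4 tables. The sources used here do not say whether untagged SF3B1 remained in the cells or whether each genotype was a single clone. The labels describe the cells as K562 throughout but name HEK293 RNA once, in a description of the read layout. Branch points are given as hg19 positions with ranks, and no gene names accompany them, so the cell line could not be checked against its marker genes.

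The U2 snRNP pairs its snRNA with the branch site, the short intron sequence whose branch point nucleotide attacks the 5′ splice site in the first step of splicing. SF3A2 belongs to the SF3a complex and SF3B1 to the SF3b complex of this particle, and SF3B1 clamps the duplex of U2 snRNA and branch site. K700E lies in the HEAT repeats of SF3B1, recurs in myeloid neoplasms and is known to favour cryptic 3′ splice sites that use other branch points. In the assay, nuclease-trimmed complexes were purified and the protected RNA was sequenced, so that a cluster of reads marks a protected stretch. Branch points are listed for each cluster, but some clusters carry a 5′ splice site mark and need not be branch sites.

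Listing in the tables chose these clusters, so the next values are a description. They made up 6.09% of the 71951 clusters with the 3′ splice site mark in any table. Of the 51708 such clusters in both SF3A2 tables they made up 8.47% (95% Wilson interval 8.23 to 8.71%), the background share of clusters in neither Flag table being the same 8.47% by definition. A further 4364 of the 51708 were missing only from Flag K700E, 4145 were missing only from Flag wild type and 38820 were in all 4 tables. These 3 classes are the comparators below, given in that order. The 4 tables differed in size, with 253912 branch points for SF3A2 K700E, 160905 for SF3A2 wild type, 134081 for Flag K700E and 124989 for Flag wild type. Each table stands for its whole group, so no value has a replicate error, no p-value was computed, and bracketed intervals at the 95% level treat clusters as independent and cover counting error only. Read numbers are not given, so a cluster that Flag complexes lacked and a cluster that the smaller Flag tables did not reach cannot be told apart.

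Clusters listed by SF3A2 alone were also set apart by the authors' marks. Of all 10569 SF3A2-only clusters, 41.4% carried the 3′ splice site mark (the clusters described here), 25.3% carried a 5′ splice site mark (2674 clusters) and 33.3% carried neither (3516 clusters). The 5′ splice site mark was on 25.3% of the SF3A2-only clusters (24.5 to 26.1%), against 4.57% of those missing only from Flag K700E, 1.60% of those missing only from Flag wild type and 0.316% of those in all 4 tables. By table, that mark was on 3.58% of SF3A2 K700E and 6.80% of SF3A2 wild-type clusters, against 0.457% of Flag K700E and 0.848% of Flag wild-type clusters. The SF3A2-only class thus held the 3′ splice site clusters beside a block of 5′ splice site clusters, absent from the Flag tables by the rule. Of the 6734 clusters with the 5′ splice site mark in any table, 89.0% were in neither Flag table.

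The SF3A2-only 3′ splice site clusters had a median length of 35 nt (quartiles 32 and 38 nt, range 15 to 133 nt). Their mean length was 35.6 ± 6.09 nt, against 34.9 ± 3.79 nt for clusters in all 4 tables (SD over clusters), a difference of 0.75 nt (0.57 to 0.94 nt). The larger spread came from both sides of the distribution. Lengths of 39 nt or more were found in 21.3% of them (20.1 to 22.6%), against 11.3% of the clusters in all 4 tables (11.0 to 11.7%). Clusters missing only from Flag K700E (22.1%) or only from Flag wild type (21.6%) were that long about as often. Lengths under 25 nt were rare, with 15 clusters (0.343%, 0.208 to 0.564%), against 0.0229%, 0.145% and 0.0773% in the 3 comparators. A length of 30 to 38 nt was shared by 3144 of the 4379 (71.8%), against 75.6%, 75% and 87.0%.

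Most of these clusters had few branch points, and SF3A2 K700E listed more of them than SF3A2 wild type. The mean was 1.79 ± 0.837 branch points per cluster in SF3A2 K700E and 1.16 ± 0.427 in SF3A2 wild type (SD over 4379 clusters), a difference of 0.62 (0.60 to 0.65). A single branch point was listed in 1982 of them (45.3%) in SF3A2 K700E and in 3748 (85.6%) in SF3A2 wild type. More branch points in K700E than in wild type were listed for 2111 clusters (48.2%), against a background of 45.3% over all clusters of both SF3A2 tables whatever their mark. Fewer were listed for 153 (3.49%; background 6.36%), and 2115 had equal numbers. The share with more in K700E was therefore near the background. The larger SF3A2 K700E table moves with this difference, and table size and genotype cannot be told apart.

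**Figure D1:**
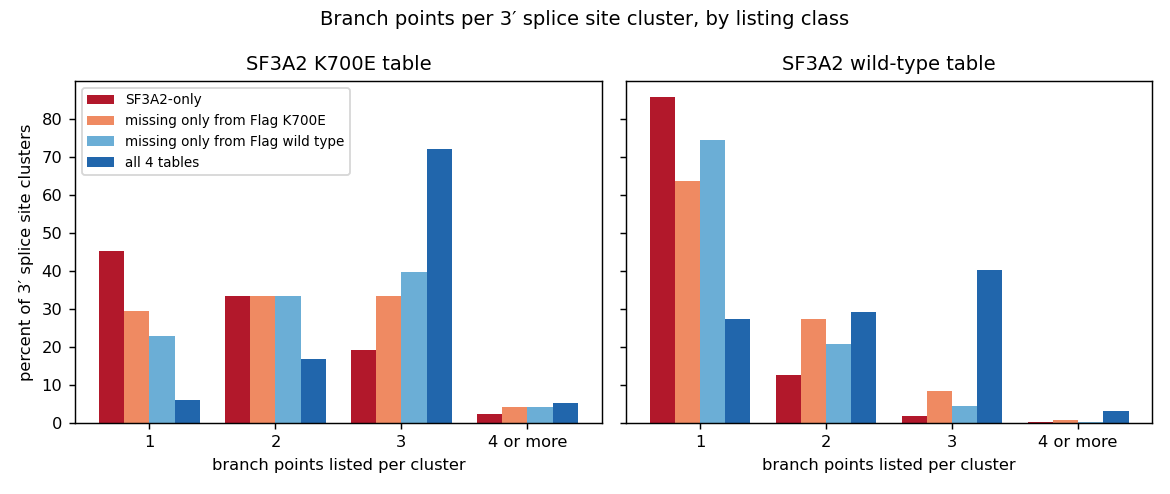
Percent of 3′ splice site clusters (vertical axis) with 1, 2, 3, or 4 or more listed branch points (horizontal axis) in the SF3A2 K700E table (left) and the SF3A2 wild-type table (right), by listing class (colours). The SF3A2-only clusters have the tallest bar at 1 branch point in both tables, at 45.3% and 85.6%, while the clusters of all 4 tables peak at 3.

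The K700E excess was 0.66 in clusters missing only from Flag K700E, 0.95 in those missing only from Flag wild type and 0.57 in those of all 4 tables. The excess in the SF3A2-only clusters was smaller than in the class missing only from Flag wild type by 0.33 branch points (0.29 to 0.36). It was larger than in the class of all 4 tables by 0.05 (0.03 to 0.08). Against the class missing only from Flag K700E the difference was -0.04, with an interval of -0.07 to 0.00176 that includes 0. Clusters of all 4 tables had more branch points in each genotype, at 2.77 in SF3A2 K700E and 2.20 in SF3A2 wild type. Ranks run from 1 to 3, so more than 3 branch points are listed only where ranks are tied. In SF3A2 K700E, 3 were listed for 72.0% of the clusters of all 4 tables, against 19.2% of the SF3A2-only clusters. The part of this limit in the differences between classes was not tested.

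The low numbers were clearest when both genotypes were read together. A single branch point in each genotype was listed for 1848 of them (42.2%, 40.7 to 43.7%), against 24.5%, 21.3% and 5.25% of the comparators. At least 3 in each genotype were listed for 63 (1.44%, 1.13 to 1.84%), against 6.46%, 4.13% and 42.3%. Read the other way, SF3A2-only clusters made up 31.6% of the 5839 clusters of both SF3A2 tables with 1 branch point in each genotype and 0.372% of the 16956 with 3 or more in each. Numbers of branch points and absence from the Flag tables may share a dependence on read depth, which is not given, so this was not tested.

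A simple example of such a cluster lay at chr1:874368-874405 on hg19, where 874387 was the only branch point in both genotypes. At chr5:422796-422829, SF3A2 K700E listed 422819, 422815 and 422813 in order of rank, and SF3A2 wild type listed 422819 alone. At chr13:20245929-20245958, SF3A2 K700E listed 20245948 ahead of 20245950, and SF3A2 wild type listed 20245948 alone. In these 3 sites the top-ranked branch point was the same in both genotypes, which held for 2785 of the 4379 clusters. All the wild-type branch points were also listed for K700E in 3452 clusters (78.8%, 77.6 to 80.0%), against 78.6%, 85.4% and 73.4% of the comparators.

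These clusters had different top-ranked branch points in K700E and wild type more often than the comparators did. Of the 3986 with 1 top in each genotype, 1201 differed (30.1%, 28.7 to 31.6%), against a background of 19.4% over all clusters of both SF3A2 tables. The remaining 393 clusters had tied tops. The share was 27.1% in clusters missing only from Flag K700E, 24.9% in those missing only from Flag wild type and 16.4% in those of all 4 tables. The SF3A2-only share was higher by 2.99 percentage points (1.01 to 4.97), 5.27 points (3.29 to 7.25) and 13.7 points (12.2 to 15.2). Libraries of the same genotype could not be compared with each other, and read support per top is not given. The part of read support in these differences was therefore not tested.

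The difference from clusters of all 4 tables was also seen at equal numbers of listed branch points. The difference from the other classes was seen at low numbers. Equal numbers of listed branch points need not mean equal read support. With 1 branch point in each genotype, 391 of 1848 SF3A2-only clusters had it at another nucleotide (21.2%, 19.4 to 23.1%). The same share was 13.1% (11.2 to 15.3%), 9.17% (7.44 to 11.3%) and 2.99% (2.34 to 3.82%) in the comparators, so the SF3A2-only interval lay above all 3. With 2 in K700E and 1 in wild type it was 33.5%, against 22.2%, 21.3% and 10.0%. With 3 or more in K700E and 1 in wild type it was 41.3% (37.4 to 45.2%), against 35.1% (31.7 to 38.6%), 32.5% (29.7 to 35.4%) and 13.6%. With 2 in both it was 41.6% (34.0 to 49.6%), against 33.2% (28.6 to 38.3%), 33.0% (26.8 to 39.8%) and 18.3%. With 3 or more in K700E and 2 in wild type it was 40.1% (32.3 to 48.5%), against 40.7%, 37.7% and 18.3%. With 3 or more in both, 28 of 43 differed (65.1%, 50.2 to 77.6%), against 45.6% (39.3 to 52.1%), 43.8% (35.8 to 52.2%) and 19.3%. In these last 4 pairs of numbers the SF3A2-only interval overlapped that of the class missing only from Flag K700E, and in the last 3 also that of the class missing only from Flag wild type, while it lay above that of all 4 tables in each.

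**Figure D2:**
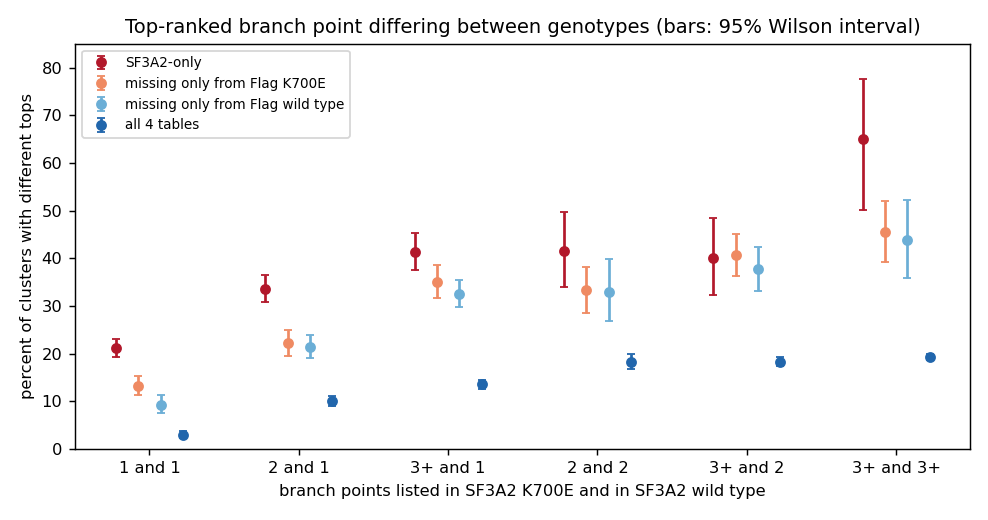
Percent of 3′ splice site clusters whose top-ranked branch point differs between SF3A2 K700E and SF3A2 wild type (vertical axis), by the numbers of branch points listed in the 2 tables (horizontal axis), with points for listing classes and bars for 95% Wilson intervals. The SF3A2-only points lie above those of all 4 tables at each pair of numbers, from 21.2% against 2.99% at 1 and 1 to 65.1% against 19.3% at 3 or more in both.

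Where the tops differed, the genotypes often shared little. The top of wild type was listed at any rank for K700E in 550 of the 1201 differing clusters (45.8%, 43.0 to 48.6%), against 67.0%, 72.3% and 87.9%. The K700E top was listed for wild type in 134 (11.2%, 9.50 to 13.1%), against 34.2%, 23.6% and 72.2%. No branch point at all was shared in 637 of the 4379 clusters (14.5%, 13.5 to 15.6%), against 6.46%, 5.52% and 0.680%. These shares depend on how many branch points are listed, which was lowest in the SF3A2-only clusters, and the part of that number in them was not tested.

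The tops that differed lay a median of 4 nt apart and at most 44 nt apart. Shifts of over 4 nt made up 569 of the 1201 (47.4%, 44.6 to 50.2%), against 41.7%, 45.8% and 33.8%. Direction was read from the end of the cluster that lies nearer the mean of its SF3A2 tops, called the closer end, because the tables carry no strand. At chr4:860343-860377, K700E had 860352 on top and wild type 860356, a move of 4 nt toward the closer end, and 860356 was second for K700E. At chr10:7318956-7318988 the single branch points were 7318964 for K700E and 7318968 for wild type, again 4 nt toward the closer end. At chr5:6668265-6668305 the move was 8 nt toward the closer end, with 6668295 on top for K700E and 6668287 for wild type.

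Other clusters moved the opposite way. At chr5:37303020-37303058 the single branch points were 37303037 for K700E and 37303033 for wild type, a move of 4 nt away from the closer end. At chr1:701779-701818 they were 701796 for K700E and 701789 for wild type, 7 nt away from it. At chr11:2417067-2417101 they were 2417089 for K700E and 2417068 for wild type, 21 nt apart. There the wild-type top lay beside the cluster start and the K700E top lay past the middle of the cluster. The start counted as the closer end only through the wild-type top, so the direction at this site is not settled.

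Both directions were about equally frequent among all the SF3A2-only clusters whose tops differed. The K700E top was nearer the closer end in 591 clusters and farther from it in 597, a nearer share of 49.7% (46.9 to 52.6%), against a background of 59% over all differing clusters. The nearer share was 58.3% in clusters missing only from Flag K700E, 54.2% in those missing only from Flag wild type and 60.5% in those of all 4 tables. The differences were -8.54 points (-12.6 to -4.43), -4.41 points (-8.66 to -0.133) and -10.7 points (-13.8 to -7.64).

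The size of the shift went with its direction. For shifts of 1 to 4 nt, 359 SF3A2-only clusters moved nearer and 270 farther (57.1%, 53.2 to 60.9%), against 65.1%, 61.7% and 66.5%. For shifts of over 4 nt, 232 moved nearer and 327 farther (41.5%, 37.5 to 45.6%), against 48.7%, 45.1% and 48.7%. A shift of 4 nt was the most frequent one in both directions, with 141 nearer and 118 farther in the SF3A2-only clusters, against 1118 nearer and 659 farther in those of all 4 tables. The excess of 4 nt moves toward the closer end was thus smaller in the SF3A2-only clusters.

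**Figure D3:**
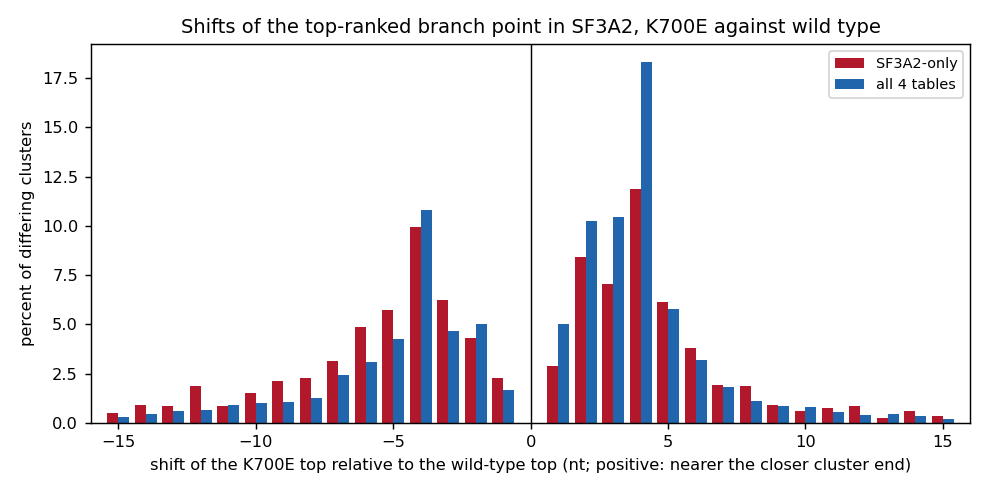
Percent of clusters with different tops (vertical axis) by the shift of the K700E top relative to the wild-type top in nt (horizontal axis, positive toward the closer cluster end, shown from -15 to 15), for SF3A2-only 3′ splice site clusters and those of all 4 tables. Both peak at 4 nt on either side, and at 4 nt toward the closer end the SF3A2-only bar reaches 11.9%, against 18.3% for all 4 tables.

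A cluster's own tops take part in choosing its closer end, so direction was also read from neighbouring clusters. Here the orientation was that of at least 60% net of 5 or more 3′ splice site clusters of all 4 tables within 50 kb. The 2 orientations were the same in 1882 of 2069 SF3A2-only clusters (91.0%, 89.6 to 92.1%), against 91.7%, 90.8% and 94.7%. With neighbours, 300 moved nearer and 288 farther (51.0%, 47.0 to 55.0%), against 56.6%, 51.0% and 58.9%. The difference from the clusters of all 4 tables was -7.92 points (-12.3 to -3.59). The differences from those missing only from Flag K700E, -5.58 points (-11.4 to 0.297), and only from Flag wild type, 0.0164 points (-5.93 to 5.96), had intervals that include 0. By neighbours, shifts of over 4 nt were nearer in 139 and farther in 163 (46.0%, 40.5 to 51.7%), against 49.2%, 37.8% and 47.0%. For these long shifts the difference from all 4 tables was -0.969 points (-7.18 to 5.32), so the lower share seen with own tops was not seen here. For shifts of 1 to 4 nt it was -8.88 points (-15.0 to -2.93).

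Cluster length moved with direction. Among clusters of 30 to 38 nt, 417 SF3A2-only clusters moved nearer and 331 farther (55.7%, 52.2 to 59.3%), against 61.8%, 59.9% and 63.9%. The difference from the clusters of all 4 tables was -8.17 points (-12.0 to -4.39). In the same length range the tops differed in 25.9% of the SF3A2-only clusters, against 23.7%, 20.6% and 14.5%. The differing share was higher than in clusters missing only from Flag wild type by 5.28 points (3.11 to 7.44), but the difference of 2.15 points from those missing only from Flag K700E had an interval that includes 0 (-0.0394 to 4.35). The nearer share was lower than in clusters missing only from Flag K700E by a difference of -6.08 points (-11.1 to -1.05), while that of -4.15 points from those missing only from Flag wild type had an interval that includes 0 (-9.41 to 1.17). At matched length, then, the contrasts with the clusters of all 4 tables were present and those with the other classes were present in part.

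The top-ranked branch point lay at a similar median place in both genotypes. Its distance from the assigned end was more spread than in clusters of all 4 tables. Over 1310 SF3A2-only clusters of 30 to 38 nt oriented by their neighbours, its median distance from the cluster end was 12 nt in SF3A2 K700E and 12 nt in SF3A2 wild type. It lay 11 to 13 nt from that end in 48.0% for K700E (45.3 to 50.7%) and 48.5% for wild type (45.9 to 51.3%), against 62.4% for K700E and 64.4% for wild type in 18202 clusters of all 4 tables. Clusters missing only from Flag K700E had 51.8% for K700E and 56.8% for wild type there, and those missing only from Flag wild type had 52.8% and 55.8% in the same order. The SF3A2-only clusters had the lowest share in each genotype, but for K700E their interval overlapped those of the classes missing from 1 Flag table.

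Tops close to the assigned end and tops far from it were both more frequent than in clusters of all 4 tables. Tops 9 nt or less from the end were found in 13.4% of the SF3A2-only clusters for K700E and 12.1% for wild type, against 7.72% for K700E and 6.0% for wild type in all 4 tables. Tops 18 nt or more from it were found in 9.24% for K700E and 9.08% for wild type, against 5.17% and 5.03% in the same order for all 4 tables. The far-side shares were 8.69% for K700E and 8.33% for wild type in the class missing only from Flag K700E, and 8.35% for both in that missing only from Flag wild type. Their intervals overlapped those of the SF3A2-only clusters, so far-side tops were shared with these classes. Tops 9 nt or less from the end were found in 11.0% for K700E and 7.10% for wild type in the class missing only from Flag K700E, and in 10.1% and 7.44% in the same order in that missing only from Flag wild type. In the SF3A2-only clusters the wild-type share lay inside the interval of the K700E share (11.6 to 15.3%).

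Nearby clusters with the 5′ splice site mark lay mostly on the side of the closer end. Within 40 to 200 nt, 124 SF3A2-only clusters had a 5′ splice site cluster on the side of the closer end and 33 on the other side (79.0%, 72.0 to 84.6%), against 88.4%, 86.2% and 84.5%. At chr6:10894275-10894306 the 5′ splice site cluster was chr6:10894424-10894461, with tops 152 nt apart, and at chr5:5486789-5486823 it was chr5:5486919-5486956, with tops 131 nt apart. Over the 124 the median offset was 141.5 nt (quartiles 119.9 and 157 nt). Of these 124 neighbours, 108 were themselves in neither Flag table (87.1%, 80.1 to 91.9%), against 89.0% of the 6734 clusters with a 5′ splice site mark in any table (88.2 to 89.7%). A 5′ splice site cluster on either side lay near 3.61% of the SF3A2-only 3′ splice site clusters (3.10 to 4.21%), against 4.59%, 3.53% and 6.89%, so these clusters had such a neighbour less often than those of all 4 tables.

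A few SF3A2-only clusters lay close beside a cluster of all 4 tables in the same orientation. Within 40 to 200 nt there were 80 with it on the side of the closer end and 67 on the other side (54.4%, 46.4 to 62.3%), against 49.6%, 43.8% and 46.2%. Within 20 to 100 nt there were 34 and 13 (72.3%, 58.2 to 83.1%), against 53.6% (15 and 13), 61.5% (24 and 15) and 48.1% (113 and 122). At chr1:11863239-11863275 the neighbour was chr1:11863197-11863232, a 3′ splice site cluster whose top lay 41 nt away on the side of the closer end. At chr5:6737531-6737547, a cluster of 16 nt, the neighbour was chr5:6737566-6737606, with tops 51 nt apart. Over these 47 short-range pairs the neighbour was thus more often on the side of the closer end. The interval for the class of all 4 tables (41.8 to 54.5%) lay below that of the SF3A2-only clusters, while those of the classes missing only from Flag K700E (35.8 to 70.5%) and only from Flag wild type (45.9 to 75.1%) overlapped it.

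**Figure D4:**
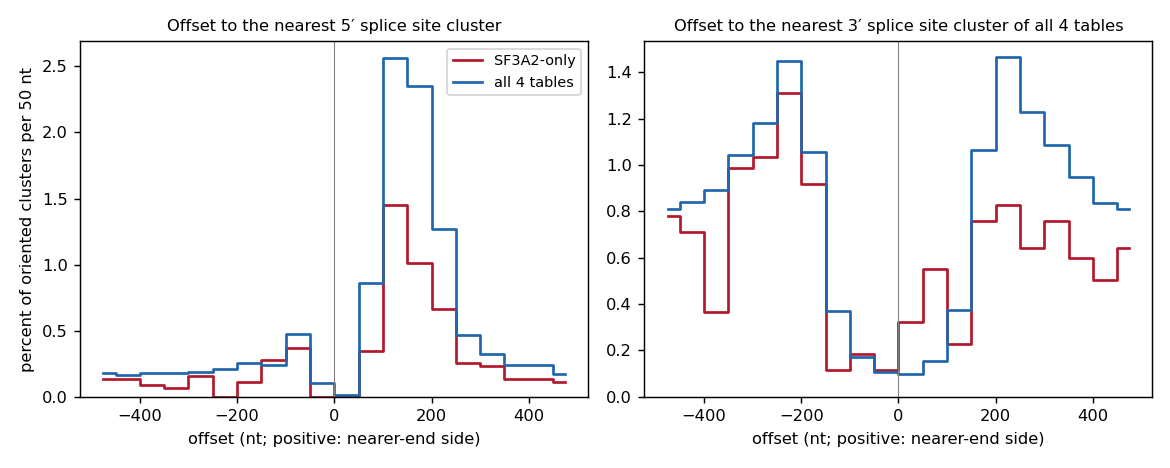
Percent of oriented 3′ splice site clusters per 50 nt (vertical axes) by the offset of the nearest 5′ splice site cluster (left) and of the nearest 3′ splice site cluster of all 4 tables (right) in nt (horizontal axes, positive on the side of the closer end), for SF3A2-only clusters and those of all 4 tables. The left curves peak at 100 to 150 nt in both classes, and on the right the SF3A2-only curve exceeds the other at 0 to 100 nt on the positive side.

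Few of these clusters had a Flag cluster at or beside their own position. The nearest cluster of either Flag table lay a median of 1714 nt away (quartiles 618 and 4370 nt), against 1585, 1370 and 1142 nt in the comparators, where the cluster itself was left out. It lay within 100 nt for 99 SF3A2-only clusters (2.26%, 1.86 to 2.74%), against 1.63%, 2.56% and 2.27%, a share within the range of the comparators. It lay within 1 kb for 1580 (36.1%), against 36.5%, 40.9% and 46.1%. Just 2 clusters overlapped a Flag cluster under another name, both named after their values were seen. The cluster at chr6:13620396-13620425 overlapped an unmarked one at chr6:13620376-13620418 by 22 nt, and the cluster at chr15:101595046-101595066 overlapped an unmarked one at chr15:101595044-101595066 by 20 nt.

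The SF3A2-only clusters were mostly set among other bound sites. The nearest Flag cluster was over 10 kb away for 548 (12.5%, 11.6 to 13.5%), against 11.2%, 8.88% and 5.60%. It was over 100 kb away for 32 (0.731%), against 0.756%, 0.579% and 0.219%. No cluster of any table lay within 10 kb of 314 (7.17%), a share that was not measured in the comparators. One of these was chr3:24540970-24541002, with 24540990 as its only branch point in both genotypes and the nearest Flag cluster 346940 nt away. Another SF3A2-only 3′ splice site cluster lay within 10 kb of 1099 (25.1%), against 28.6% and 27.6% with a neighbour of their own class in those missing only from Flag K700E and only from Flag wild type. The median number of 3′ splice site clusters of all 4 tables within 50 kb was 7, against 6, 7 and 8, and 330 had none (7.54%), against 7.84%, 6.30% and 3.32%.

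The 63 clusters with 3 or more branch points in both genotypes were longer than the SF3A2-only clusters as a whole. Their median length was 39 nt, against 35 nt. Of them, 32 were 39 nt or longer (50.8%, 38.8 to 62.7%), against 21.3% of all SF3A2-only clusters. The share was 12.1% in the 16440 clusters of all 4 tables with 3 or more in both. It was not measured in such clusters of the classes missing from 1 Flag table. The 63 were spread over 21 chromosomes and lay a median of 1087 nt from a Flag cluster. At chr1:891407-891436 the 3 positions 891416, 891419 and 891414 were listed for both genotypes, with 891416 on top for K700E and 891419 for wild type. At chr10:17276643-17276691 the top was 17276670 for K700E and 17276677 for wild type.

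Across the genome the clusters were spread widely. They lay in 3036 of the 8226 intervals of 100 kb that held a 3′ splice site cluster of both SF3A2 tables, and 2124 of the 3036 held 1 of them (70.0%). The highest number in an interval was 7, reached on chromosome 4 (48.5 to 48.6 Mb), chromosome 6 (90.4 to 90.5 Mb), chromosome 10 (104.1 to 104.2 Mb) and chromosome 17 (80 to 80.1 Mb). These intervals held 33, 37, 39 and 40 3′ splice site clusters of both SF3A2 tables in the same order.

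The share of 3′ splice site clusters that were SF3A2-only varied between chromosomes. It was highest on chromosome 13, at 14.0% (135 of 961, 12.0 to 16.4%), and on chromosome 14, at 12.9% (197 of 1529, 11.3 to 14.7%). It was lowest on chromosome 21, at 5.39% (34 of 631, 3.88 to 7.44%), and was 6.08% on chromosome 20 and 6.42% on chromosome 1 (378 of 5886, 5.82 to 7.08%). The class missing only from Flag K700E, 8.44% genome-wide, made up 9.68%, 9.68% and 4.44% on chromosomes 13, 14 and 21. The class missing only from Flag wild type, 8.02% genome-wide, made up 7.49%, 8.50% and 10.1% there. Of 257 windows of 10 Mb with at least 60 clusters, 26 had an SF3A2-only interval above the genome-wide 8.47% and 16 below it. These were 42 windows in all (16.3%). Intervals at the 95% level around a share common to all windows would miss it in about 5% of them if clusters were independent, which neighbouring clusters need not be. The lowest window share was 0.826% (1 of 121), on chromosome 3 from 0 to 10 Mb, the highest was 18.2% (14 of 77), on chromosome X from 130 to 140 Mb, and the median was 8.59%. The next window of chromosome 3 (10 to 20 Mb) was also low, with 6 of 217. On chromosome 13, 2 adjoining windows were high, with 20 of 113 (30 to 40 Mb) and 30 of 180 (40 to 50 Mb). In the lowest window, 1 of 121 was missing only from Flag K700E and 9 of 121 only from Flag wild type. In the highest window these were 11 of 77 and 2 of 77 in the same order.

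**Figure D5:**
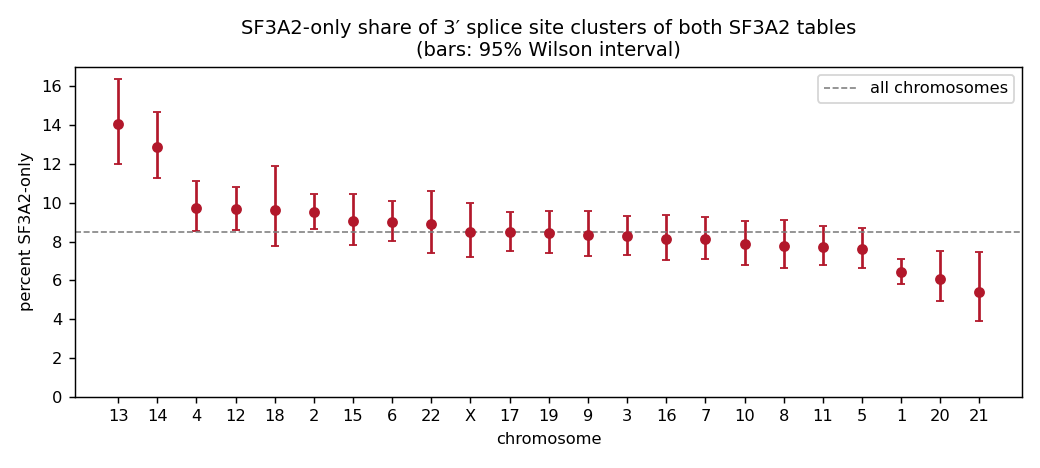
Percent of 3′ splice site clusters of both SF3A2 tables that are SF3A2-only (vertical axis) on each chromosome (horizontal axis, in falling order), with 95% Wilson intervals as bars and the genome-wide 8.47% as a dashed line. The intervals of chromosomes 2, 4, 12, 13 and 14 lie wholly above the line and those of chromosomes 1, 20 and 21 wholly below it.

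Regional shares were also set beside the number of branch points that SF3A2 wild type listed for clusters of the same region. Whether this number follows depth is not known, and the numbers of the other groups were not used here. Counted over 3′ splice site clusters of all 4 tables, SF3A2 wild type listed 2.12 branch points per cluster on chromosome 13 and 2.07 on chromosome 14, against 2.29 on chromosome 1. Chromosome 19 had the lowest number, also 2.07, and an SF3A2-only share of 8.42%, near the genome-wide value. Over 23 chromosomes the SF3A2-only share and this number gave Pearson r = -0.37 and Spearman rho = -0.25. Without chromosomes 14 and 19, the 2 farthest from the median number, they were -0.26 and -0.17 over 21 chromosomes. Over the 257 windows they were -0.29 and -0.30. When the SF3A2-only clusters themselves, which have few branch points, were counted too, the chromosome values were -0.62 and -0.41. The window values were then -0.49 and -0.51. Points share the same libraries, so these relations are a description. The part of K562 copy number or transcription, for which the tables hold no measure, was not tested.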

How the data were processed

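Per the labels, nuclease-treated extracts were immunoprecipitated, and inserts of 24 to 55 nt were amplified for 11 to 14 PCR cycles. The submitters' processing notes name STAR 2.7.6a, cutadapt and hg19. Cluster calling, pooling of the 3 SF3A2 libraries per genotype and branch point ranking are not given in the sources used here. The deposited tables give, per the file headers, cluster, chromosome, start, end, branch point and rank, which is a deposited score of 1 to 3 that can be tied. Whether positions count from 0 or 1 is unknown. The 1 entry of SF3A2 K700E that lacked a cluster identifier was not used. Depth per sample is unknown.

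Membership, branch points and distances were computed with Python 3.11.15 and scipy 1.17.1, numpy 2.4.6 and pandas 2.3.3, and plotted with matplotlib 3.10.9. Shares have Wilson intervals, their differences Newcombe intervals and differences of means normal intervals. The clusters and lists were chosen with earlier results of these data known. Printed sites come from the first qualifying cluster on each chromosome for each pattern, at most 12 per pattern, with chromosome 8 left out. Those with 3 or more branch points in both genotypes and those beside a 5′ splice site cluster follow patterns added after values were seen. The counting steps were tested on simulated data. No hg19 genome or annotation was used here, so no gene, gene list, marker or sequence is reported.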

Additional observations from a re-analysis of the deposited data

How the results depend on the processing

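Of 25 alternative settings, 11 moved a share or difference out of its interval and 14 did not. Counted among the 14 is the number of SF3A2-only clusters, which was 3144 for lengths of 30 to 38 nt. Restriction to clusters of 30 to 38 nt gave a share of 7.26% for SF3A2-only clusters among 3′ splice site clusters of both SF3A2 tables, a K700E excess of 0.59 branch points, differing tops in 25.9% and a nearer share of 55.7%. Requiring at least 2 branch points in both SF3A2 tables gave an SF3A2-only share of 1.62%. Counting top-ranked branch points alone, ties included, gave a K700E excess of 0.0256. Tops within 2 nt counted as the same gave 24.8% differing, and clusters with 1 branch point in both tables, an alternative chosen after seeing the data, gave 21.2%. Shifts of 1 to 4 nt gave a nearer share of 57.1%. Neighbours of all 4 tables lay on the side of the closer end in 72.3% at 20 to 100 nt and 46.0% at 40 to 500 nt. That share and the nearer share thus crossed an even split, which their reported intervals include. The cause of these moves was not tested, beyond the fewer clusters or branch points that each setting counts. No paired analysis was possible because the 3 SF3A2 libraries of each genotype were deposited as 1 pooled table and each Flag group had 1 library, and no replicate could be left out for the same reason. Orientation by annotated strand, the sequence at the branch point and counts per gene were planned and not run. With no read numbers, the depth behind each absence from a Flag table is unknown.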

Other observations

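The 2674 SF3A2-only clusters with a 5′ splice site mark lay beside clusters of all 4 tables far more often than the SF3A2-only 3′ splice site clusters did. Within 40 to 200 nt, 45.8% of the 5′ splice site clusters (44.0 to 47.7%) had a cluster of all 4 tables in the same orientation, against 3.38% of the 3′ splice site clusters (2.88 to 3.96%). It lay on the side of the closer end in 186 cases and on the other side in 1036 (15.2%, 13.3 to 17.3%). For the 3516 unmarked SF3A2-only clusters, 6.95% had such a neighbour, with 132 on the side of the closer end and 111 on the other (54.3%, 48.0 to 60.5%). Unmarked clusters had a 3′ splice site cluster of any table in this range in 137 cases, 103 of them on the side of the closer end (75.2%, 67.3 to 81.7%).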
